A study of Mus musculus with 9 samples.

Results

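The genes described here encode ligands and receptors of 4 growth factor systems that act on fibroblasts: the fibroblast growth factors (FGFs), the platelet-derived growth factors (PDGFs), the epidermal growth factor (EGF) family and hepatocyte growth factor (HGF). Some genes of these systems, Pdgfra and Egf among them, are not members, so rankings hold among the members only. Members were chosen by symbol, as every Fgf gene with a number, Fgfr1 to Fgfr4, Pdgfa to Pdgfd, and Pdgfrb, Egfr, Erbb2, Erbb3, Areg, Ereg, Btc, Tgfa, Nrg1, Hbegf, Hgf and Met. The rule found 42 of the 47729 genes listed, of which 30 had a mean level of at least 3 and counted as measured, against 15623 measured genes in all. Expression was profiled by RNA sequencing in synovial fibroblasts grown in culture from digested paws of wild-type BALB/c mice; these cells build the lining and support layer of the joint capsule. In all, 3 groups of 3 libraries each were compared: naive cultures came from paws with no injection, non-primed cultures from right paws given monosodium urate (MSU) crystals on day 9, and primed cultures from left paws given the crystals on day 0 and again on day 9. RNA is dated to day 18, that is 9 days after the last injection, and the cells had gone through 5 passages in culture. Paw side coincides with priming, paws of the 2 injected groups may come from the same mice, and the numbers 1 to 3 need not name a mouse, so p-values measure the spread between these cultures only.

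The receptors of all 4 systems belong to tyrosine kinase families. They form pairs when a ligand binds and then signal through the RAS-ERK and PI3K-AKT cascades. FGFs bind their receptors together with heparan sulphate, PDGF dimers drive the migration and growth of mesenchymal cells, ligands of the EGF family are mostly shed from membrane precursors, and HGF is made by mesenchymal cells and binds MET. In the joint, synovial fibroblasts are both a source and a target of these factors, and PDGF and FGF2 are known as growth factors for fibroblasts in culture. Values are regularised logarithm (rlog) values on a log2 scale, on which 1 unit is a doubling, and the depth of the libraries is unknown. Because rlog draws weak genes towards their mean, differences of genes near the bound of 3 are understated. A difference carries its standard error (SE) from limma, a linear model fitted to all measured genes, and was called when its Benjamini-Hochberg adjusted p was below 0.05.

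No member passed that threshold in any comparison. Fgf2 came nearest: it was about 1.5 units lower in both injected groups than in naive cultures, and no injected library reached the lowest naive one. Fgf12 and Fgf13 were higher in every injected library than in every naive one, at low levels. With a naive mean of 2.66, Fgf12 passed the bound of 3 only through its injected libraries. Groups did not overlap for 21.9% of all genes in non-primed and 17.1% in primed against naive cultures. Fgfr1 differed by -0.36 between non-primed and naive cultures, without overlap. The receptors Egfr, Pdgfrb, Met and Fgfr2 and the ligands Fgf7, Hgf, Pdgfa and Hbegf had group means that differed by at most 0.33, although single naive cultures lay far from the rest.

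Fibroblast markers were high in all cultures, beside markers of other cells, and the cultures differed most among the naive ones. All 10 fibroblast markers were measured, with a summed level of 18.43 to 19.63, and none of 6 epithelial markers reached 3. Col3a1, at 17.46 to 19.14, made the largest part of the fibroblast sum. Of the other lists, 5 of 6 Schwann cell, 4 of 5 adipocyte and 4 of 8 skeletal muscle markers were measured. Macrophage RNA was present, with all 15 markers measured: the summed level was 13.57, 15.89 and 13.20 in naive 1, 2 and 3 and 15.71 to 16.94 in the injected libraries. The median difference of these markers from naive was 1.87 in non-primed and 2.01 in primed cultures, and none was called. For the members the median SD between replicates was 0.54 in naive cultures, 0.17 in non-primed ones and 0.27 in primed ones, beside 0.22, 0.10 and 0.14 for all measured genes. In bulk cultures fewer cells of a type and less RNA per cell cannot be told apart.

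Levels of different genes can be compared only per length, and here the scale is the mean rlog minus log2 of the exon length in kilobases, taken from GENCODE M21. Pdgfrb, the receptor of PDGF-BB and PDGF-DD on mesenchymal cells, was the most abundant member at 11.29. Pdgfd, its ligand PDGF-D, followed at 10.06, and Fgf7, the keratinocyte growth factor that fibroblasts send to epithelium, at 9.92. Egfr and Hgf stood at 9.45 each, Fgfr1 at 8.46, Met at 8.31 and Fgfr2 at 8.26. From Pdgfd down to Fgfr2, each gene overlapped with the next in its range over the 9 libraries, while Pdgfrb lay above Pdgfd throughout. Both sides of the HGF system and of the PDGF-D system were thus among the 8 highest members. Fgf2 stood at 6.88 on this scale, Pdgfb at 4.24, Tgfa at 2.32 and Fgf12 at 0.42, the lowest of the measured members.

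**Figure D1:**
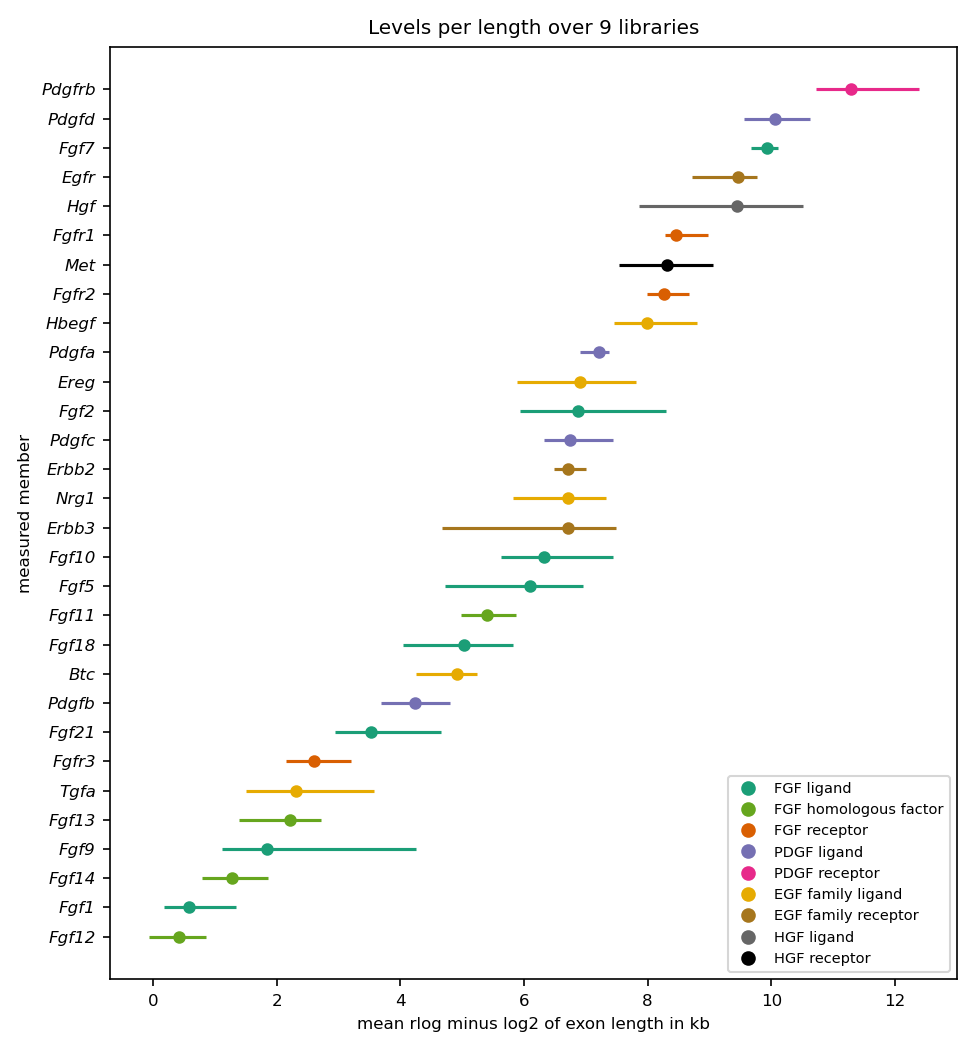
Level per length of the 30 measured members, as the mean rlog minus log2 of exon length in kilobases (horizontal axis), coloured by role. Points are means of 9 libraries and lines span the lowest to the highest library, from Pdgfrb at 11.29 to Fgf12 at 0.42.

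Of the 18 secreted FGF genes, 8 were measured. Fgf22, Fgf6, Fgf23, Fgf17 and Fgf16 had means of 0.75 to 2.00, Fgf20, Fgf3 and Fgf15 had means below 0, and Fgf8 and Fgf4, known from the limb bud ectoderm, were listed at 0 in all 9 libraries. Fgfr4, an FGF receptor best known from liver, was at 0.41, 0.82 and 0.49 in naive, 0.32, 0.37 and 0.33 in non-primed and 0.42, 0.32 and 0.37 in primed libraries, all far under the bound. Areg, the gene of amphiregulin, a shed EGF receptor ligand, had a mean of -0.45. The members nearest to the bound were Fgf1 at 3.04 and Fgf12 at 3.05 above it and Fgf22 at 2.00 below it.

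Fgf2 encodes basic FGF, a growth factor that leaves cells without a signal peptide and binds strongly to matrix heparan sulphate (ENSMUSG00000037225, GRCm38 chromosome 3, 37348346 to 37410108). Its rlog level was 11.06, 10.23 and 10.57 in naive 1, 2 and 3. It was 9.23, 8.69 and 9.58 in the non-primed libraries and 9.17, 9.07 and 9.17 in the primed ones. Every naive library lay above every injected one, and the primed libraries were the closest together, with an SD of 0.06 against 0.44 in non-primed and 0.42 in naive cultures. The non-primed group differed from naive by -1.45 (SE 0.25, limma adjusted p = 0.0672), a level of 36.6% of naive when read on a linear scale, with a 95% confidence interval of the difference from -2.02 to -0.89. The primed group differed from naive by -1.49 (SE 0.25, limma adjusted p = 0.0811), or 35.7% of naive, with an interval from -2.05 to -0.92. These 2 differences share the naive libraries. Between primed and non-primed cultures Fgf2 differed by -0.03, with an interval from -0.60 to 0.53.

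Whether Fgf2 counted as changed depended on the fit, though its sign did not in either comparison with naive cultures in any of 15 alternatives. Naive libraries did not deviate together with same-numbered injected ones (r = -0.16 to 0.15 across genes), so pairing them by number has little basis. With the replicate number as a block the primed difference passed (limma adjusted p = 0.0483) and the non-primed one did not. Without naive 2 both passed, at -1.65 (limma adjusted p = 0.0187) and -1.68 (limma adjusted p = 0.0162), as they did with sample weights. Over all genes, limma called 355 and 356 without naive 2 and 621 and 733 with sample weights, in place of 22 and 16. Over all alternatives the adjusted p ran from 0.0141 to 0.292 for non-primed and from 0.0152 to 0.365 for primed cultures. An exact permutation test of 3 libraries against 3 gave p = 0.1 for each, two-sided, the smallest it can give.

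Markers of other cells were set beside Fgf2. The summed macrophage level of naive 2, 15.89, was above that of primed 3 and below those of the other injected libraries. Naive 1 and 3 were lower than all of these, and Fgf2 was 10.23 in naive 2. Lyz2, at 15.44 in naive 2, made the largest part of that sum. By the mean of the 15 markers naive 2, at 10.04, was also slightly above non-primed 1, at 10.03. Adipocyte markers, of which 4 of 5 were measured and Lep was listed at 0, had summed levels of 10.60, 10.76 and 8.91 in naive 1, 2 and 3 and of 9.39 to 9.76 in the injected libraries. Naive 1 and 2 thus had a higher summed level than every injected library and naive 3 a lower one. For naive 3 this rests on Fabp4, at 8.69 there and at 9.25 to 9.69 in injected libraries. Adipoq, Cfd and Plin1 lay in naive 3 within the range of the injected libraries. The part of macrophages and adipocytes in the Fgf2 level was not tested. Fgf2 shares 640 exon bases with Nudt6, a gene on the opposite strand, and the strand setting of the counting is not known. Nudt6 stood at 6.08 to 6.29 in naive and 5.83 to 6.26 in injected libraries, differing by -0.22 and -0.21 (SE 0.15 each).

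The Fgf2 promoter is shown where a GC box, the motif read by SP1-type factors, lies before the RefSeq start of the gene, because Fgf2 had the smallest p among the members. The stretch is chr3:37348592-37348621 on the plus strand of GRCm38.p6 and begins 61 bases before that start. GENCODE M21 places the start of Fgf2 further upstream, at 37348346, so the stretch lies inside the gene as annotated there. Capitals mark the GC box, GGGCGG.
Fgf2: aggcggcgcgcgGGGCGGgggcgcacgggg
On either strand GGGCGG occurred 1 time in the Fgf2 window of 250 bases before to 50 after the start, and TATAAA did not occur in it. GGGCGG was present in 35.7% of 32851 RefSeq promoter windows and in 18 of the 31 windows of the 22 measured members that had one. The Fgf2 window had a GC content of 62.7%, against a median of 52.7% over all windows.

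Fgfr1 and Fgfr2 were strongly expressed, Fgfr1 with its highest and Fgfr2 with its lowest group mean in naive cultures. Fgfr1 (ENSMUSG00000031565, chromosome 8, 25513654 to 25575718), the main FGF2 receptor of mesenchyme, was at 11.94, 12.28 and 11.73 in naive, 11.65, 11.63 and 11.58 in non-primed and 11.81, 11.63 and 11.61 in primed libraries. All non-primed libraries were below all naive ones, and primed 1 overlapped with naive 3. The differences from naive were -0.36 (SE 0.13, limma adjusted p = 0.245) and -0.30 (SE 0.13, limma adjusted p = 0.301). Fgfr2 (ENSMUSG00000030849, chromosome 7), whose isoforms read FGF7 and FGF10 in epithelium and other FGFs in mesenchyme, was at 11.38, 11.65 and 11.36 in naive, 11.64, 11.50 and 11.79 in non-primed and 11.76, 11.58 and 12.04 in primed libraries. The groups overlapped, with naive 2 above non-primed 1, non-primed 2 and primed 2, and the differences were 0.18 (SE 0.14, limma adjusted p = 0.579) and 0.33 (SE 0.14, limma adjusted p = 0.275). The gene model of Fgfr2 in GENCODE M21 shares 314 exon bases with Ctbp2, so reads could be split between them. Other members overlap in exons with annotated antisense or unclassified transcripts, among them Fgfr1, Fgfr3, Fgf10, Pdgfa, Hgf, Nrg1, Ereg and Tgfa, and their values carry the same uncertainty. Fgfr3 was low, at 5.77, 6.05 and 5.02 in naive, 5.25, 5.24 and 5.46 in non-primed and 5.73, 4.99 and 5.53 in primed libraries, and these groups overlapped.

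Fgf7 and Fgf10 are paracrine factors that mesenchyme sends to epithelium. Fgf7 (ENSMUSG00000027208, chromosome 2, 126034658 to 126091185) was at 11.81, 11.68 and 11.42 in naive, 11.61, 11.48 and 11.81 in non-primed and 11.37, 11.69 and 11.73 in primed libraries. It was among the steadiest members, and the intervals of its differences from naive ran from -0.32 to 0.31 and from -0.35 to 0.28. Fgf10, needed for limb outgrowth and fat tissue, was at 8.44 to 9.64 in naive, 7.82 to 8.49 in non-primed and 8.11 to 9.06 in primed libraries, with differences of -0.79 (SE 0.36) and -0.55 (SE 0.36). Its groups overlapped through naive 3, non-primed 3 and primed 1. Fgf5, an inhibitor of hair growth, ranged from 6.05 in naive 3 to 8.27 in naive 1, and Fgf18, a growth factor of cartilage, from 4.30 in primed 2 to 6.07 in naive 1. For Fgf5 and Fgf18 the range of each injected group overlapped with that of naive cultures. Fgf21, a hormone-like FGF, ranged from 2.88 to 4.59, with its highest value in naive 3.

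The FGF homologous factors are intracellular partners of sodium channels and not secreted ligands. Fgf12 (ENSMUSG00000022523, chromosome 16, 28160098 to 28753068) was at 2.59, 2.82 and 2.57 in naive, 3.39, 3.50 and 2.99 in non-primed and 3.06, 3.20 and 3.32 in primed libraries. Fgf13 (ENSMUSG00000031137, chromosome X, 59062145 to 59568071) was at 3.83, 4.08 and 3.39 in naive, 4.73, 4.60 and 4.44 in non-primed and 4.14, 4.22 and 4.65 in primed libraries. For both genes every injected library exceeded every naive one, but closely: the nearest pairs were primed 1 and naive 2 for Fgf13 (4.14 and 4.08) and non-primed 3 and naive 2 for Fgf12 (2.99 and 2.82). The differences from naive were 0.63 and 0.53 for Fgf12 (SE 0.16 each, limma adjusted p = 0.150 and 0.185) and 0.82 and 0.57 for Fgf13 (SE 0.21 each, limma adjusted p = 0.154 and 0.237). Fgf12 was above the bound of 3 only through its injected libraries, since its naive mean was 2.66. Skeletal muscle markers had a like order: 4 of 8 were measured, with Myh4, Ckm, Myog and Myod1 under the bound, and their summed level was 6.93 to 7.14 in naive and 7.20 to 8.79 in injected libraries, and the part of such cells in the Fgf12 and Fgf13 levels was not tested. Fgf11 at 6.59 to 7.47 and Fgf14 at 2.85 to 3.92 overlapped between all groups.

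**Figure D2:**
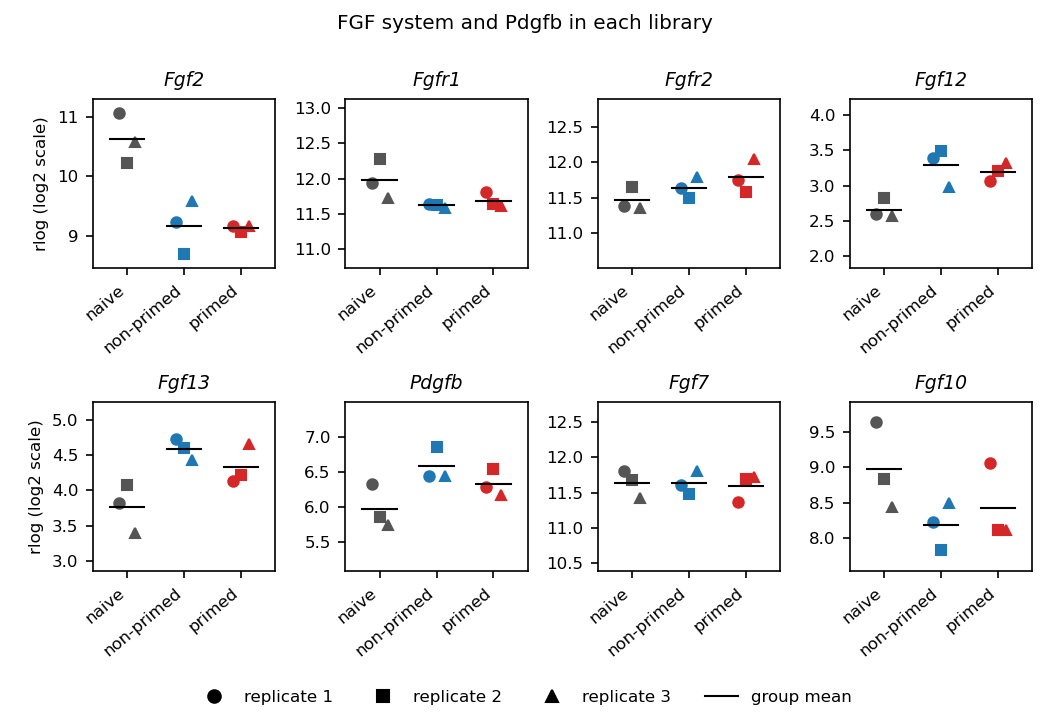
Rlog levels (log2 scale, vertical axes of at least 2.4 units that differ in position) of 8 genes in the naive, non-primed and primed libraries. Symbols mark replicates 1 to 3 and lines the group means, and Fgf2 is lower in all 6 injected libraries, at 8.69 to 9.58, than in the 3 naive ones, at 10.23 to 11.06.

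Among the PDGF ligands, Pdgfb was the one whose non-primed and naive libraries did not overlap. Pdgfb (ENSMUSG00000000489, chromosome 15, 79995874 to 80014977), which platelets, endothelium and macrophages are known to make, was at 6.33, 5.86 and 5.74 in naive, 6.44, 6.85 and 6.45 in non-primed and 6.29, 6.54 and 6.17 in primed libraries. All non-primed libraries were above all naive ones, while naive 1 lay among the primed ones. The differences from naive were 0.60 (SE 0.20, limma adjusted p = 0.219) and 0.35 (SE 0.20, limma adjusted p = 0.404). Macrophage markers were lower in naive 1 and 3 than in every injected library and reached 15.89 in naive 2, and their part in the Pdgfb level was not tested. Pdgfa, a ligand of fibroblast PDGF receptors, was at 9.02, 8.55 and 8.98 in naive, 8.97, 8.90 and 8.81 in non-primed and 8.56, 8.92 and 8.96 in primed libraries, with overlap throughout. Pdgfc at 8.67 to 9.79 and Pdgfd at 11.21 to 12.28 had their highest values in naive 3.

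Pdgfrb was at 13.18, 13.19 and 14.83 in naive, 13.66, 14.02 and 13.61 in non-primed and 13.26, 14.08 and 13.85 in primed libraries. Naive 3 stood above all other libraries, the other naive cultures were lowest, and the injected libraries lay between. The group means were 13.73, 13.76 and 13.73, so the differences from naive were 0.03 and -0.00 (SE 0.42 each), and without naive 3 they were 0.58 and 0.55. The 7 markers of pericytes and smooth muscle, cells that also carry PDGFRB, had a summed level of 14.69 in naive 3, against 12.41 to 13.24 in naive 1 and 2 and 13.20 to 14.10 in injected libraries. Acta2 alone was at 14.46 in naive 3, so that sum mostly follows this gene. Among naive cultures Acta2, Cspg4 and Myh11 were highest in naive 3. Rgs5 and Des were lowest there, and Mcam and Notch3 were highest in naive 1. The part of such cells in the Pdgfrb level was not tested.

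Hgf (ENSMUSG00000028864, chromosome 5, 16553495 to 16620152), the motility and growth factor that mesenchymal cells make for their neighbours, had the second widest spread between naive replicates. It was at 13.13, 13.36 and 10.70 in naive, 12.24, 11.92 and 12.61 in non-primed and 11.93, 12.18 and 12.59 in primed libraries. Naive 1 and 2 exceeded all injected libraries and naive 3 was below all of them. The differences were -0.14 and -0.16 (SE 0.61 each) with naive 3 and -0.99 and -1.01 without it, where neither passed (limma adjusted p = 0.0747 and 0.0805). Met, the HGF receptor (ENSMUSG00000009376, chromosome 6, 17463800 to 17573980), was at 12.00, 11.24 and 10.73 in naive, 11.52, 11.05 and 11.30 in non-primed and 11.93, 10.48 and 10.99 in primed libraries. Its highest values came from naive 1 and primed 1, and the groups overlapped.

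Egfr, the receptor of EGF, TGF-alpha and HB-EGF (ENSMUSG00000020122, chromosome 11, 16752203 to 16918158), was nearly constant in injected cultures. It was at 13.01, 13.28 and 12.22 in naive, 12.99, 13.04 and 12.95 in non-primed and 13.00, 13.07 and 13.06 in primed libraries. The SD was 0.04 in each injected group and 0.55 in naive cultures, where naive 3 was lowest. Erbb2, the receptor without a known ligand that pairs with the other family members, was at 9.38, 9.33 and 9.02 in naive, 9.05, 9.05 and 8.94 in non-primed and 9.30, 8.96 and 8.87 in primed libraries, overlapping in naive 3 and primed 1.

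Erbb3, the neuregulin receptor, was at 10.03, 8.92 and 7.26 in naive, 9.85, 10.08 and 9.49 in non-primed and 8.66, 9.75 and 9.60 in primed libraries. The differences from naive were the largest positive ones among the members, 1.06 and 0.59 (SE 0.61 each, limma adjusted p = 0.449 and 0.650), but the groups overlapped. ERBB3 is also a defining receptor of Schwann cells. Among naive cultures Erbb3 was highest in naive 1 and lowest in naive 3, and Sox10, a transcription factor of that lineage, had the same order at 7.06, 5.98 and 4.71, as had S100b, a calcium-binding protein gene, at 9.60, 8.53 and 7.46. Mbp, a myelin protein gene, had the opposite order at 6.28, 7.30 and 7.90. Sox10 was at 6.65, 6.88 and 6.26 in non-primed and 5.59, 6.69 and 6.36 in primed libraries, so that primed 1 was the lowest injected library for both genes. The part of such cells in the Erbb3 level was not tested.

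Among the EGF family ligands, Hbegf, a shed ligand that macrophages and stressed fibroblasts make, was at 10.09, 9.72 and 11.08 in naive, 10.20, 10.53 and 10.25 in non-primed and 9.74, 10.26 and 10.50 in primed libraries, with naive libraries at both ends. Nrg1, the neuregulin that binds ERBB3, ranged from 9.19 in naive 2 to 10.70 in naive 1, and Ereg, epiregulin, from 7.94 in naive 2 to 9.86 in naive 3. Both genes were tightly grouped in non-primed cultures, with SDs of 0.04 and 0.05. Btc, betacellulin, ranged from 6.43 in naive 3 to 7.42 in non-primed 2.

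Tgfa, the gene of TGF-alpha, was at 6.25, 6.27 and 4.20 in naive, 4.87, 4.82 and 4.84 in non-primed and 4.49, 4.33 and 5.08 in primed libraries. Naive 1 and 2 stood above all injected libraries and naive 3 below them. The differences were -0.73 and -0.94 (SE 0.50 each, limma adjusted p = 0.536 and 0.374) with all libraries. Without naive 3 they were -1.42 and -1.62 and passed (limma adjusted p = 0.0287 and 0.0268). Over all genes, limma then called 266 and 196, in place of 22 and 16 with all libraries. Adipocyte genes had a like order in naive cultures: the adipokine gene Adipoq was at 8.64, 8.46 and 5.44 in naive 1, 2 and 3 and 4.30 to 6.56 in injected libraries, and the part of such cells in the Tgfa level was not tested. Tgfa was picked out after its values were seen.

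**Figure D3:**
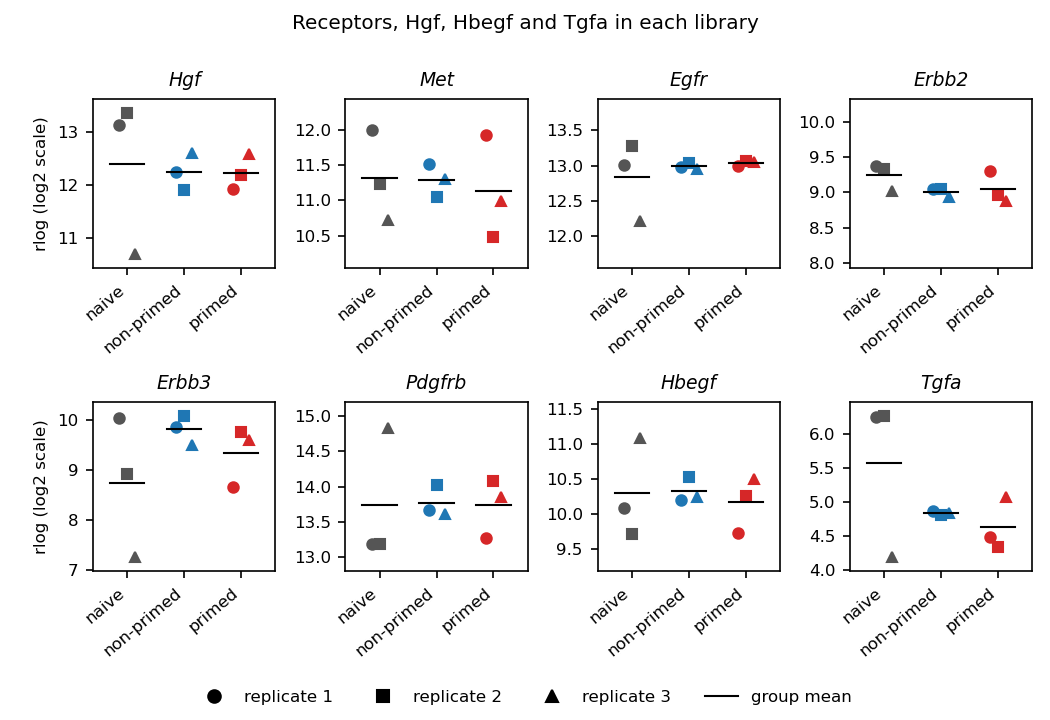
Rlog levels (log2 scale, vertical axes of at least 2.4 units that differ in position) of 8 genes of the HGF, EGF and PDGF systems in the 3 groups. Symbols mark replicates 1 to 3 and lines the group means, and naive 3 is an end of the range for Hgf, Egfr, Erbb3, Pdgfrb, Hbegf and Tgfa.

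The single naive cultures set much of the members' spread. Naive 3 held the highest or the lowest value of 19 of 30 members (63.3%), where it did so for 51.7% of all measured genes. It was highest for Ereg, Fgf1, Fgf21, Fgf9, Hbegf, Pdgfc, Pdgfd and Pdgfrb and lowest for 11 members, among them Hgf, Egfr, Erbb3, Fgf5, Btc and Tgfa. Fgf9, an FGF of joint and muscle development, was at 6.47 in naive 3 and at 3.33 to 4.24 in the other 8 libraries. Naive 2 was an end of the range for 12 members (40%), against 39.2% of all genes. The naive group had the largest SD of the 3 groups for 23 of 30 members, as for 67.4% of all genes.

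**Figure D4:**
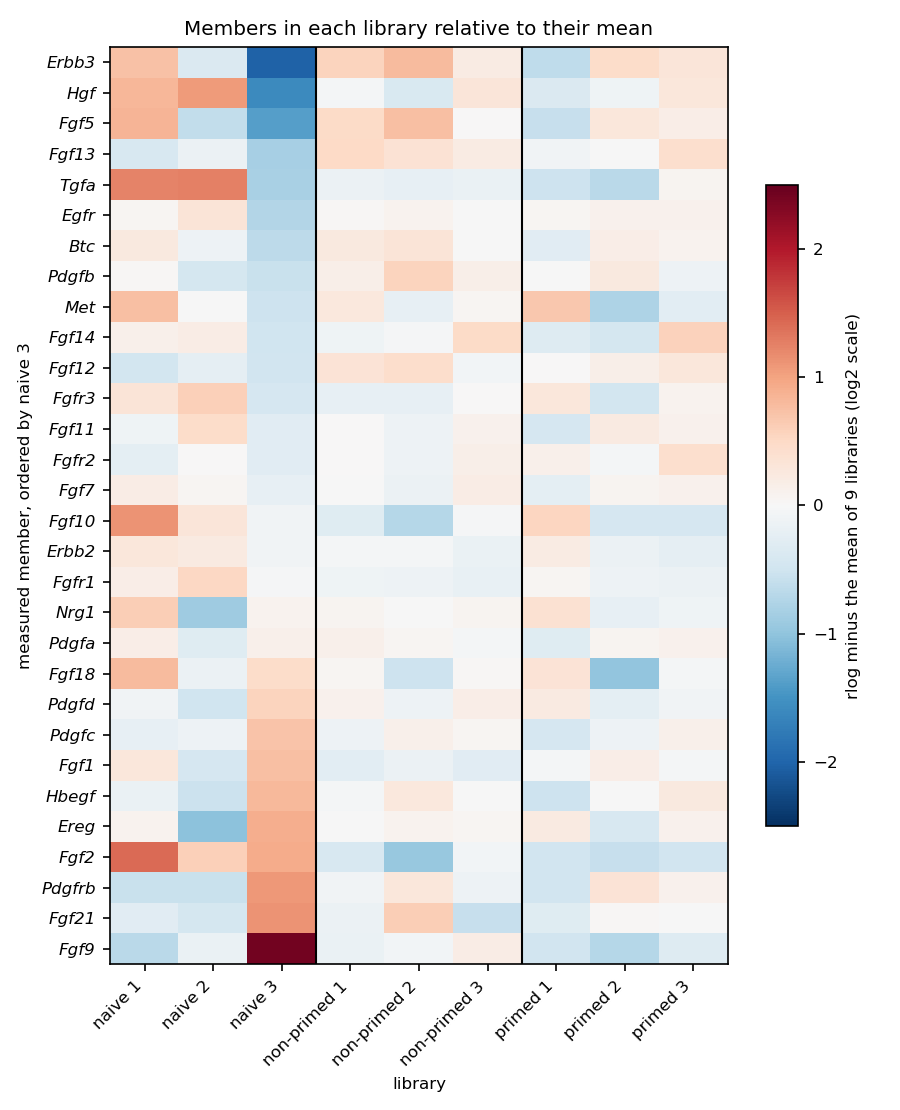
Rlog of each measured member minus its mean over 9 libraries (colour, log2 scale), with members ordered by their value in naive 3. Colours are deepest in the naive 3 column, from Erbb3 at the low end to Fgf9 at the high end, and pale in most injected libraries.

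Read against all genes, the counts of members were near the background in the comparisons with naive cultures. Non-primed against naive cultures gave 0 called members, where limma called 0.141% of all genes. At an unadjusted p below 0.05 there were 5 members (Fgf2, Fgf12, Fgf13, Fgfr1 and Pdgfb), or 16.7%, against 15.4% of all genes. The same 5 had groups that did not overlap, against 21.9% of all genes. Fgf12 is in these and the following counts although it passed the bound of 3 only through its injected libraries, so the counts describe the members and support no difference. Primed against naive cultures gave 0 called members, against 0.102% of all genes, and 4 at an unadjusted p below 0.05 (Fgf2, Fgf12, Fgf13 and Fgfr2), or 13.3%, against 16.9%. With the replicate number as a block, limma called 1 member (Fgf2) in that comparison, and 51 genes in all in place of 16. Groups did not overlap for 3 members (Fgf2, Fgf12 and Fgf13), against 17.1% of all genes. Smaller groups overlap less by construction. Without naive 1, 2 or 3 in turn, 8, 11 and 13 members did not overlap in non-primed against naive cultures (26.7%, 36.7% and 44.8% of those measured), where 34.5%, 33.8% and 43.4% of all genes did not. In primed against naive cultures these were 6, 7 and 9 members (20%, 23.3% and 31%), against 31.3%, 29.3% and 34.2% of all genes, and 6 members without primed 1, against 34.5%. The median difference in non-primed cultures was -0.14 without naive 2. The median difference of the members was 0.01 and -0.05, beside 0.01 and -0.00 over all genes. The median size of the differences was 0.21 and 0.20 for members and 0.15 and 0.17 for all genes.

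Between primed and non-primed cultures the median size of the members' differences was 0.10, beside 0.09 for all genes. limma called 0 members and 0% of all genes, and at an unadjusted p below 0.05 there were 0 members, against 1.26% of all genes. The groups did not overlap for 2 members, against 11.6% of all genes, and for 1 to 6 (3.45% to 20%) with single libraries left out, against 11.5% to 28.5% of all genes. These were Fgf1, a ligand of all FGF receptors, at 2.78, 2.89 and 2.76 in non-primed and 3.00, 3.20 and 2.99 in primed libraries, with 3.33, 2.62 and 3.79 in naive ones, and Fgf9, at 3.88 to 4.24 in non-primed and 3.33 to 3.74 in primed libraries. Both are weak genes, and their differences were 0.25 (SE 0.25) and -0.49 (SE 0.67). Fgf1 had a non-primed mean of 2.81 and passed the bound of 3 only through its naive and primed groups. Without naive 3 it fell under the bound and left the count, where 1 of 29 measured members did not overlap. The members with the smallest p in this comparison were Pdgfb at -0.25 (SE 0.20), Fgf13 at -0.25 (SE 0.21), Fgfr2 at 0.15 (SE 0.14) and Fgf1 (limma adjusted p = 1.00 each). The variance of a gene was estimated over all 3 groups, so the spread of naive cultures also entered these SEs and intervals. The intervals were wide for Hgf, from -1.41 to 1.37, and narrow for Fgf7, from -0.35 to 0.28, and for Fgfr1, from -0.23 to 0.36. The SD of Hgf was 1.47 among naive cultures, but only 0.33 among primed and 0.35 among non-primed ones. Its SE between the injected groups was 0.61, and 0.21 when naive 3 was left out. The SE of Egfr was 0.23, although its SD was 0.04 in each injected group. For any difference among the 3 groups, the moderated F test of limma called 0 members and 0.0704% of all genes. Unadjusted it gave 4 members (Fgf2, Fgf12, Fgf13 and Pdgfb), or 13.3%, against 12.8% of all genes.

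**Figure D5:**
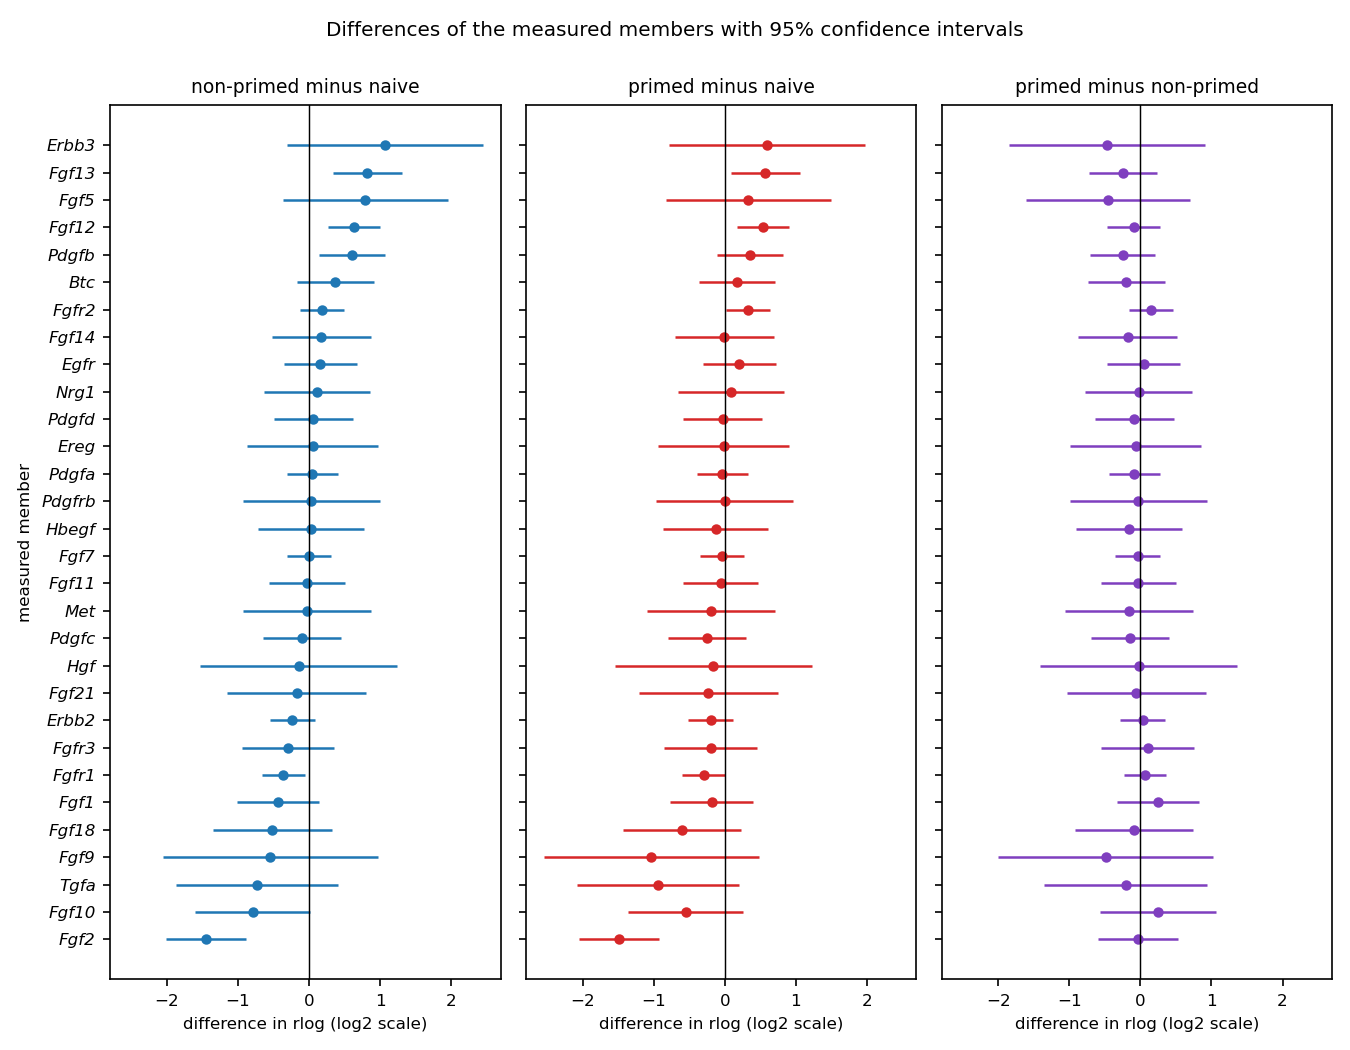
Differences in rlog (log2 scale, horizontal axes) of the 30 measured members in the 3 comparisons, with 95% confidence intervals from limma and members ordered by the first comparison. Fgf2 lies at -1.45 and -1.49 against naive cultures and at -0.03 between the injected groups.

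Other genes of the same pathways were taken from 5 lists of 121 genes set by role, of which 108 were measured. None passed the threshold in any comparison by limma, and 22, 18 and 2 had an unadjusted p below 0.05 in the order non-primed against naive, primed against naive and primed against non-primed (20.4%, 16.7% and 1.85% of those measured). Beside the background shares of 15.4%, 16.9% and 1.26% these are close to those of all genes.

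Among 27 measured co-receptors and extracellular modulators, 5 were lower at an unadjusted p below 0.05 in each comparison with naive cultures, and 1 and 0 were higher. Over all genes, 15.4% and 16.9% had such a p in either direction. Fgfrl1, an FGF receptor that lacks the kinase domain, averaged 10.54 in naive cultures, 9.85 in non-primed ones and 10.04 in primed ones. The 3 groups did not overlap with each other, and the differences from naive were -0.68 (SE 0.11, limma adjusted p = 0.0633) and -0.49 (SE 0.11, limma adjusted p = 0.128). The first of these passed when naive 1, 2 or 3 was left out. Over all genes, limma then called 83, 355 and 266 in that comparison, in place of 22. Hs6st1, which adds sulphate to heparan chains, differed by -0.39 (SE 0.12) in non-primed cultures, and Flrt2, a membrane partner of FGF receptors, by -0.54 (SE 0.17) in primed ones.

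In the 13 measured proteases and inhibitors that process ligands, Plat, the tissue plasminogen activator, which can activate HGF, differed by 0.75 and 0.85 (SE 0.20 each, limma adjusted p = 0.164 and 0.137), and its groups were apart in both comparisons with naive cultures. Spint2, an inhibitor of HGF activation at a low level of 3.09 to 3.86 in group means, differed by -0.77 (SE 0.23) in non-primed cultures. In the 30 adaptors and kinases, the exchange factors of RAS, Sos1 and Sos2, differed by -0.50 (SE 0.10) and -0.46 (SE 0.11) in primed cultures. Grb2, the adaptor that carries SOS to receptors, differed by 0.33 (SE 0.10) and Frs3, an adaptor of FGF receptors, by -0.56 (SE 0.19) in non-primed ones.

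Of 22 measured feedback inhibitors, 3 and 5 were lower at an unadjusted p below 0.05 and 0 were higher, with medians of -0.18 and -0.23. The shares of all genes with such a p, in either direction, were 15.4% and 16.9%. Cbl, the ubiquitin ligase that sends receptors to the lysosome, differed by -0.32 and -0.36 (SE 0.09 each, limma adjusted p = 0.164 and 0.132). Spred2, an inhibitor of RAS activation, differed by -0.36 (SE 0.14) in non-primed and Spry2, a Sprouty protein induced by FGF signals, by -0.47 (SE 0.18) in primed cultures. Over all genes, 51.7% had a higher mean in non-primed and 49.8% in primed than in naive cultures. Of the 16 transcriptional targets of the ERK cascade, 11 and 4 had a higher mean in these comparisons, with medians of 0.08 and -0.10. At an unadjusted p below 0.05, 1 was higher and 2 were lower in non-primed cultures, and 0 and 2 in primed ones. The higher one was Ier3, an early response gene, at 0.77 (SE 0.29), named after its value was seen. The lower ones were Etv1 and Etv5, ETS factors that FGF signals are known to induce. Etv5 differed by -0.37 and -0.29 (SE 0.10 each, limma adjusted p = 0.157 and 0.209) and Etv1 by -1.06 and -1.04 (SE 0.32 each, limma adjusted p = 0.191 and 0.185). Without naive 2, Etv1 and Etv5 passed in non-primed and another ETS factor, Etv4, in primed cultures. Over all genes, limma then called 355 and 356, in place of 22 and 16.

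Between primed and non-primed cultures the smallest p-values of these lists belonged to the early response genes Egr1, at -0.83 (SE 0.34), and Egr3, at -0.37 (SE 0.15). The others with the smallest p in their list were Fgfrl1 at 0.19 and Hs2st1 at -0.09, Adam10 at -0.20 and Spint2 at 0.48, Sos1 at -0.21 and Akt2 at 0.13, and Spry2 at -0.28 and Rasa1 at -0.30 (limma adjusted p = 1.00 for all 10).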

How the data were processed

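Values are the rlog values (log2 scale) of the single table the authors deposited. The settings behind rlog were not known. Such values hold no read counts, so the depth is unknown. Per the submitters' processing notes the tools include cutadapt 2.5, STAR 2.5.4a, Subread 1.6.1 with featureCounts and DESeq2, with genome build GRCm38; the strand setting of the counting is not given in the sources used here. Gene symbols, coordinates and exon lengths came from GENCODE M21, which matched 47224 of 47729 identifiers. Promoter windows came from RefSeq (GRCm38.p6).

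Of 27757 genes whose values varied, 15623 with a mean rlog of at least 3 were tested. limma 3.58.1 in R 4.3.3 fitted 1 mean per group to all 9 libraries (6 residual degrees of freedom) with a trend of variance on level, and p-values were adjusted by Benjamini-Hochberg over all 15623 genes in each comparison. The fit was tested on simulated data in which all groups had the same spread per gene. There limma called 64% of 50 genes shifted by 1 unit, with 9 false calls among the genes not shifted. The wider spread of naive cultures was not simulated. Summed marker levels are log2 of the sum of the linear values. The members and lists were chosen with earlier results of these data known. Values in every library are given for the 4 members with the smallest p in each comparison and for the main receptors and ligands, and from each pathway list for the 2 genes with the smallest p per comparison the differences are given; Tgfa and Fgf9 were added after they were seen. Some genes that this rule or the marker lists name are not reported here. Primed and non-primed libraries of number 1 and of number 2 deviated together from their group means (r = 0.42 and 0.61 across genes). Those of number 3 hardly did (r = 0.10), less than the differently numbered non-primed 3 and primed 1 (r = 0.28). Naive libraries did not pair with same-numbered ones of either group (-0.16 to 0.15). A fit with the replicate number as a block was therefore only set beside the fit without it. Other alternatives were no filter, no variance trend, quantile normalization, sample weights, only the groups compared and leaving out each library.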

Additional observations from a re-analysis of the deposited data

How the results depend on the processing

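The comparisons were repeated under 15 alternatives, and those of the F test were chosen after seeing the data. With sample weights, which lower the weight of deviating libraries, limma called 1 member in each of the 3 comparisons. These were Fgf2 at -1.59 in non-primed and -1.67 in primed against naive cultures, and Fgfr2 at 0.34 in primed against non-primed ones. In the same order it called 7, 7 and 15 of the 108 measured genes of the pathway lists, beside 621, 733 and 2109 of all 15623 genes. By the F test it called 3 members, and no count over all genes was taken for that test under these weights. Under those weights differences took the other sign for Pdgfrb (0.50) and Hbegf (0.34) in primed against naive cultures, and for Pdgfrb (0.16), Erbb2 (-0.13), Hgf (0.25), Fgf7 (0.077) and Hbegf (0.21) in primed against non-primed ones. With the replicate number as a block, 1 member (Fgf2) was called in primed against naive cultures, and no other call of a member was altered. No member was called without the filter, without the variance trend, after quantile normalization or with only the groups compared.

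Leaving out 1 library at a time gave 0 to 1 called members in both comparisons with naive cultures and by the F test (Fgf2 without naive 2, Tgfa without naive 3), and 0 to 3 and 0 to 1 called genes of the pathway lists. Members whose groups did not overlap numbered 4 to 13 (13.8% to 44.8%), 2 to 9 (6.9% to 31%) and 1 to 6 (3.45% to 20%) in the 3 comparisons, against 21.9% to 43.4%, 17.1% to 34.5% and 11.5% to 28.5% of all genes in the same fits. The median difference of the members in non-primed against naive cultures ran from -0.14 to 0.13. Egfr ran from -0.15 to 0.38 and from -0.10 to 0.43 against naive cultures, and in primed against naive cultures Pdgfrb ran from -0.28 to 0.55 and Hbegf from -0.42 to 0.26. Over all genes, the 22 and 16 calls against naive cultures became 0 and 0 without the filter, 5 and 0 without the trend, 7 and 0 with only the groups compared, 17 and 51 with the block and 621 and 733 with sample weights, which called 2109 between the injected groups. Without single libraries they ran from 0 (without non-primed 1, for example) to 355 and 356 (without naive 2).

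The causes of these shifts were not tested. With 3 libraries a group and a median naive SD of 0.54 for the members, precision was limited by the spread between cultures, and the unknown depth gives no counting error for the weak genes.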
